A study of Homo sapiens with 6 samples.

Results

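SGK1, its relatives SGK2 and SGK3, the kinases AKT1 and AKT2, their activating kinase PDPK1 and the substrates NEDD4L, FOXO1 and FOXO3 make up the set of 9 genes described here. They were taken by gene symbol from the 20474 annotated genes of the deposited tables, which held 22782 rows in all. The set was proposed with the POU2F1 knockdown results already known, SGK1 being among the genes with the largest differences, so the values of the 9 genes are a description and carry no test. HCT116, a human colorectal carcinoma cell line labelled as wild type, was transfected with an siRNA directed at POU2F1 (siPOU2F1, 3 libraries) or with a non-targeting siRNA (sicontrol, 3 libraries). POU2F1, also called OCT1, is a transcription factor that binds the octamer sequence. PolyA RNA was sequenced 48 h after transfection. The labels do not say that the 3 libraries of a group came from separate cultures. Every SD below thus measures the spread between libraries, which may be technical. Each SE comes from a limma fit over all genes, which draws a gene's variance toward a trend of variance on mean. An SE is therefore not the spread of that gene alone, and it too rests on libraries that may be technical repeats.

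SGK and AKT kinases belong to the AGC family of serine and threonine kinases. Growth factors and insulin activate PI3-kinase, PDPK1 then phosphorylates the activation loop of AKT and SGK, and the mTORC2 complex phosphorylates their hydrophobic motif. AKT is mostly regulated through this phosphorylation, whereas SGK1 is also strongly regulated through its RNA, which responds to glucocorticoids, serum and cell shrinkage, and its protein is short-lived. In epithelia such as that of the colon, SGK1 phosphorylates the ubiquitin ligase NEDD4L, which otherwise removes the epithelial sodium channel from the cell surface. Both kinases also phosphorylate FOXO transcription factors, which then leave the nucleus.

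Levels are given in FPKM (fragments scaled to transcript length and to the total mapped fragments), and differences are siPOU2F1 minus sicontrol on the log2(FPKM + 0.5) scale, where 1 is a doubling of well-expressed genes and changes of low genes are understated. POU2F1 itself stood at 4.16, 3.60 and 4.26 FPKM in sicontrol replicates 1 to 3 and at 1.87, 1.69 and 1.73 FPKM in siPOU2F1 replicates 1 to 3. The groups did not overlap, and the log2 difference was -0.99 (SE 0.14, n = 3 per group; limma adjusted p = 0.0333). Leaving out sicontrol replicate 1, 2 or 3 or siPOU2F1 replicate 1 or 2 put its adjusted p between 0.114 and 0.222. By an exact permutation test (two-sided) p was 0.1, and 3 against 3 libraries cannot give less. Between 11670 and 11853 genes reached 1 FPKM in a library. The library siPOU2F1 replicate 3 stood apart from its group: across 11831 genes its correlation with siPOU2F1 replicates 1 and 2 was 0.946 and 0.948. With sicontrol replicates 1, 2 and 3 its correlation was higher, at 0.969, 0.977 and 0.966, so it lay nearer to every sicontrol library than to its own group. For genes outside the set, the value without this library is given where leaving it out brings the adjusted p under 0.05. The library was picked from these same data. Without it 2990 genes had an adjusted p under 0.05, against 147 with all libraries and 0 to 9 with any other library left out. Such values therefore show how a gene depends on this library and are no separate support. Of 15 colorectal epithelial markers, 12 averaged at least 1 FPKM, EPCAM among them, while KRT20, CDX1 and LGR5 were near 0. Their summed level was 3060 to 3902 FPKM in sicontrol and 4041 to 5665 FPKM in siPOU2F1, so it moved with the groups, and its part in the results was not tested. KRT8 and KRT18 carried that difference, summing to 1978 to 2713 FPKM in sicontrol and 2938 to 4163 FPKM in siPOU2F1, while the sums of the other 13 overlapped (1082 to 1192 against 1103 to 1508 FPKM). EPCAM stood at 204 to 218 against 210 to 223 FPKM, and CLDN7 was lower in siPOU2F1, at 120 to 156 against 92.1 to 119 FPKM. In siPOU2F1 replicates 1 and 2, KRT19, CDH1, VIL1, ELF3, CLDN3 and CLDN4 were above every sicontrol library. In replicate 3 these genes lay within the sicontrol range. CLDN4, for example, stood at 116, 121 and 77.7 FPKM in sicontrol and at 283, 303 and 111 FPKM in siPOU2F1. Summed levels of the other marker lists were at most 2.82 in sicontrol against 1.89 to 3.76 FPKM in siPOU2F1 for fibroblasts (1 of 9 genes at 1 FPKM or more), 0.957 to 1.13 against 0.597 to 0.907 for endothelium (0 of 7), and 6.43 to 8.29 against 7.06 to 8.23 for leukocytes (1 of 10, with PTPRC listed at 0). Smooth muscle markers summed to 6.55 to 8.16 against 6.74 to 8.30 FPKM (3 of 5), and neural and neuroendocrine markers to 103 to 118 against 116 to 143 FPKM (4 of 6). ENO2, the highest of the latter, stood at 64.4 to 86.5 against 62.9 to 82.8 FPKM. SYP (1.41 to 2.18 against 4.39 to 5.69 FPKM) and TUBB3 (22.6 to 31.8 against 43.3 to 45.1 FPKM) were higher without overlap. CHGA, near 0, was lower.

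SGK1 (ENSG00000118515) lies on the minus strand of chromosome 6, at chr6:134169246-134318112 (GENCODE 29, GRCh38), and RefSeq (GRCh38.p14) lists 3 start sites for it. Because SGK1 carries the largest difference of the set, the bases upstream of each start are shown, 5′ to 3′ on the minus strand and without transcribed bases. The first is chr6:134318113-134318362, the second chr6:134177906-134178111 and the third chr6:134174897-134175116. Capitals mark GC boxes (GGGCGG or CCGCCC) and TATA boxes (TATAA or TTATA).
SGK1 start 1: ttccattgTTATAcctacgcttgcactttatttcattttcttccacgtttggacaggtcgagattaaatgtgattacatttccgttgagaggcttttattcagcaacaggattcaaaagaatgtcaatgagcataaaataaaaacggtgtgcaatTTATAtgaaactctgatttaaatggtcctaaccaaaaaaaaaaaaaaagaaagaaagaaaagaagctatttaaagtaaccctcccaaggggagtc
SGK1 start 2: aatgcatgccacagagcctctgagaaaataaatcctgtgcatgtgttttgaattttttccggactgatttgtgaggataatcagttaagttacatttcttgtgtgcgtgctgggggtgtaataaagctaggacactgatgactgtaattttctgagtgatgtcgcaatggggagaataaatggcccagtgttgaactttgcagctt
SGK1 start 3: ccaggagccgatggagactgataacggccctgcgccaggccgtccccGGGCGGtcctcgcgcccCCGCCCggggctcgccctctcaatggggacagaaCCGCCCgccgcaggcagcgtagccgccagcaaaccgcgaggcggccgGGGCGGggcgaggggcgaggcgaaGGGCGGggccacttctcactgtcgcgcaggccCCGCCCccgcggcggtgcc
The 3 upstream regions differ in composition. GC content over the 250 bases before the start was 33.6% at the first, 41.6% at the second and 76.0% at the third. The third held 6 GC boxes and, on the gene's strand, a TATAA 25 bases before the start, inside the stretch left off because another transcript covers it. In the first region 2 matches to the TATA box lay far upstream, and the second had a TATAA 15 bases before the start, also left off. Windows reaching 50 bases past the start were searched on both strands for the octamer of POU2F1 (ATGCAAAT), a glucocorticoid receptor core motif (AGAACA) and a FOXO site (GTAAACA). None of the 3 SGK1 windows held the octamer, which 1.76% of all 34796 promoter windows held, nor the FOXO site, held by 3.42%. That core motif was present 6 bases after the second start and in 14.8% of all windows, the GC box in 44.9% and the TATA box in 20.5%. RefSeq windows were matched for 7 of the 9 genes, and among them the octamer was found in no window; in POU2F1 itself, 1 of 3 windows held a copy. FPKM values are summed over a gene, so these data do not tell the 3 SGK1 starts apart.

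SGK1 stood at 9.29, 9.71 and 10.7 FPKM in sicontrol replicates 1 to 3 and at 33.8, 35.0 and 28.7 FPKM in siPOU2F1 replicates 1 to 3. Every siPOU2F1 library was above every sicontrol library, with siPOU2F1 replicate 3 the lowest of its group. The means were 9.91 ± 0.741 and 32.5 ± 3.34 FPKM (SD, n = 3 each), a ratio of 3.28, and the log2 difference was 1.66 (SE 0.12). Against the sicontrol mean the 3 siPOU2F1 libraries stood at 1.72, 1.77 and 1.49, and without replicate 3 the difference was 1.75 (SE 0.11). Ranked from the highest difference down, SGK1 was number 7 of 11831 genes. In bulk RNA a change in RNA per cell and a change in how many cells express a gene cannot be told apart.

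SGK2, a related kinase best known from liver and kidney, was barely detected. Its levels were 0.442, 0.413 and 0.464 FPKM in sicontrol and 0.572, 0.573 and 0.382 FPKM in siPOU2F1, so the groups overlapped. At a mean under 1 FPKM it was not among the genes tested, and 7.04% of its exonic bases are shared with Z98752.3, which was listed at 0. SGK3, which carries a lipid-binding PX domain and sits on endosomes, stood at 4.14, 3.90 and 4.22 FPKM in sicontrol and at 4.47, 4.33 and 4.84 FPKM in siPOU2F1. The groups did not overlap but lay close together, with a log2 difference of 0.14 (SE 0.12). Neither gene had the size of difference seen for SGK1: on the log2 scale SGK2 was 0.10 higher on average.

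**Figure D1:**
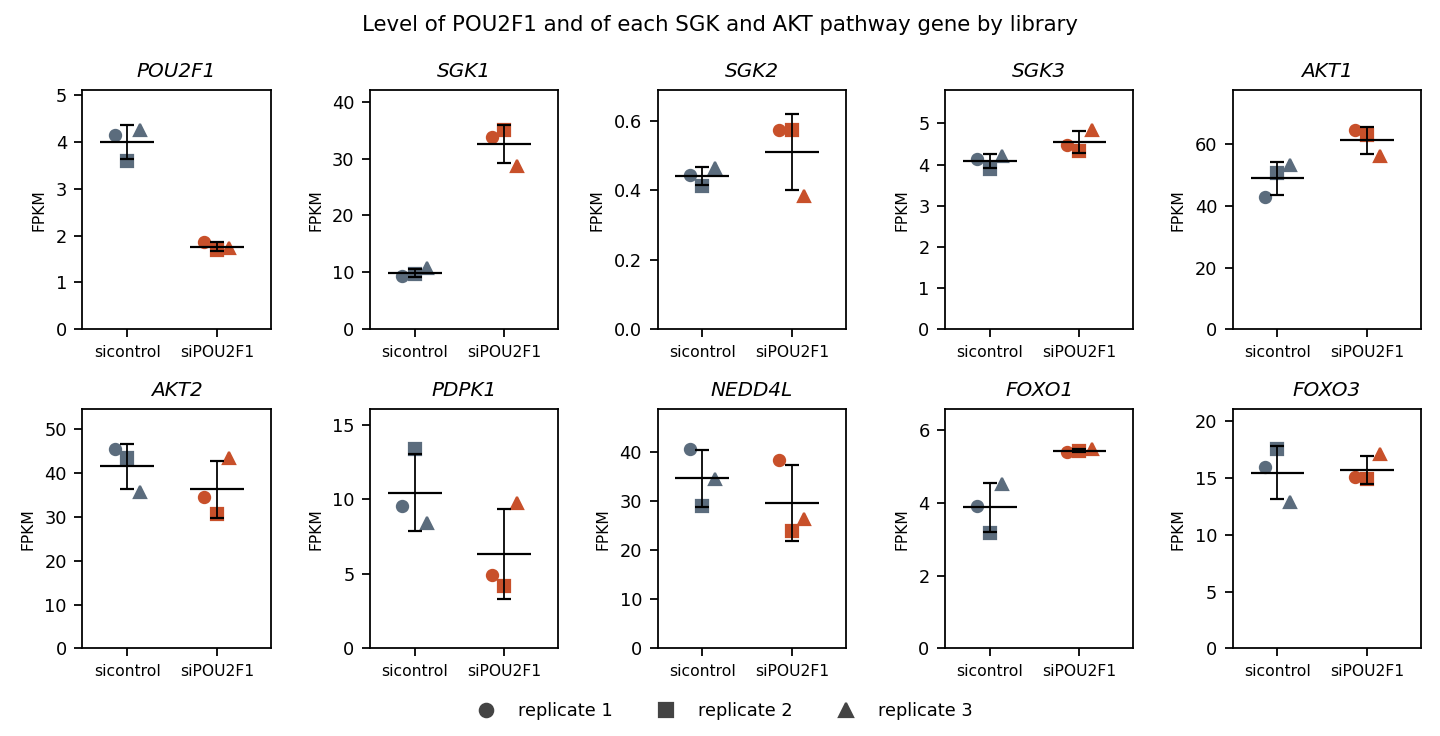
Level in FPKM of POU2F1 and the 9 genes in each library, with a separate axis from 0 for every gene; points are libraries (marker shape gives the replicate number), bars are group means and whiskers 1 SD, n = 3. SGK1 sat at 9.29 to 10.7 FPKM in sicontrol and 28.7 to 35.0 in siPOU2F1. For AKT2 and PDPK1 the triangle of siPOU2F1 replicate 3 lay among the sicontrol libraries, and for FOXO3 every siPOU2F1 library did.

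AKT1, the widely expressed AKT kinase tied to growth and survival, stood at 42.8, 50.6 and 53.3 FPKM in sicontrol and at 64.6, 63.0 and 56.1 FPKM in siPOU2F1. The groups did not overlap, although siPOU2F1 replicate 3 came within a few FPKM of sicontrol replicate 3. Means were 48.9 ± 5.48 and 61.2 ± 4.51 FPKM (SD, n = 3), a ratio of 1.25 and a log2 difference of 0.33 (SE 0.12). AKT2, the isoform most associated with insulin-driven glucose uptake, stood at 45.4, 43.4 and 35.6 FPKM in sicontrol and at 34.6, 30.7 and 43.4 FPKM in siPOU2F1. Here siPOU2F1 replicates 1 and 2 lay below all sicontrol libraries and replicate 3 lay among them. The log2 difference was -0.20 (SE 0.16), and -0.34 (SE 0.13) without siPOU2F1 replicate 3.

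Summing SGK1, SGK2, SGK3, AKT1 and AKT2 in each library shows how the RNA of these 5 kinases was divided. The summed level was 102.0, 108.0 and 104.4 FPKM in sicontrol and 138.1, 133.5 and 133.5 FPKM in siPOU2F1. SGK1 supplied 9.11%, 8.99% and 10.3% of it in sicontrol and 24.5%, 26.2% and 21.5% in siPOU2F1. Its share was thus higher after knockdown in every library, including replicate 3. AKT1 held nearly the same mean share in both groups, 46.6% ± 4.58 in sicontrol and 45.3% ± 2.85 in siPOU2F1 (SD, n = 3), while the mean share of AKT2 was 39.6% ± 5.19 and 26.8% ± 5.03. The level of SGK1 relative to AKT1 was 0.217, 0.192 and 0.201 in sicontrol and 0.524, 0.556 and 0.512 in siPOU2F1, without overlap. The ratio of AKT1 to AKT2 did overlap, at 0.943, 1.17 and 1.50 in sicontrol and 1.87, 2.05 and 1.29 in siPOU2F1. These shares use the values that chose SGK1 and are not tested.

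**Figure D2:**
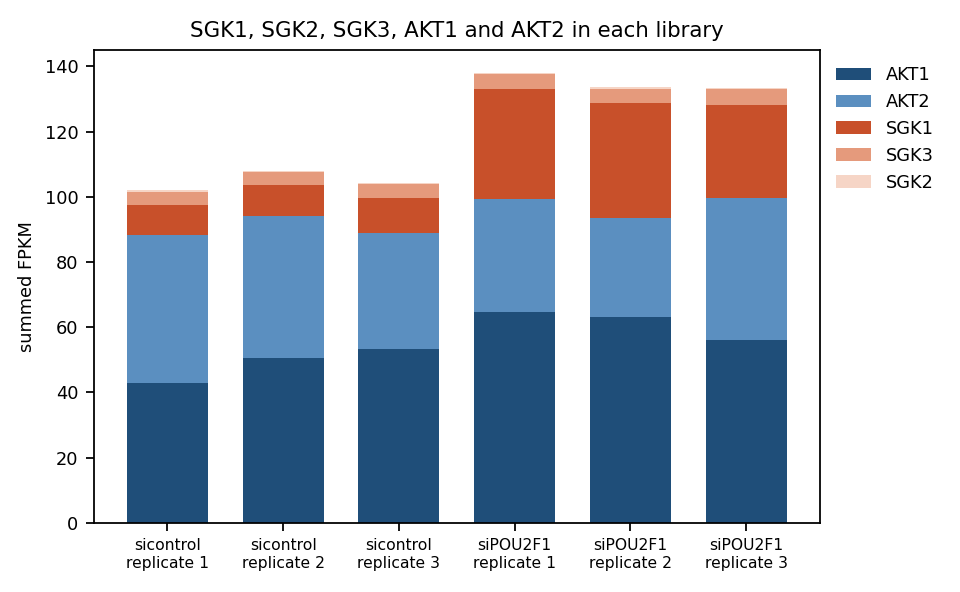
Summed level in FPKM of SGK1, SGK2, SGK3, AKT1 and AKT2 in each library, stacked by gene, on an axis from 0. The SGK1 segment made up 8.99% to 10.3% of the sicontrol bars and 21.5% to 26.2% of the siPOU2F1 bars.

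PDPK1, the kinase that phosphorylates the activation loop of both SGK and AKT, stood at 9.58, 13.4 and 8.42 FPKM in sicontrol. In siPOU2F1 it stood at 4.94, 4.22 and 9.78 FPKM. Replicates 1 and 2 of siPOU2F1 were below every sicontrol library, while replicate 3 was above 2 of them, so the groups overlapped. The log2 difference was -0.75 (SE 0.32) over all libraries, with single siPOU2F1 libraries at -0.98, -1.19 and -0.07 against the sicontrol mean. Without siPOU2F1 replicate 3 it was -1.09 (SE 0.20), so this 1 library moved the PDPK1 value more than that of any other gene of the set. Sequence overlap limits PDPK1: the antisense transcripts AC141586.3 and AC093525.7 cover 16.8% and 6.85% of its exonic bases, and its near-identical copy PDPK2P can share reads. How reads of either were assigned is not given in the sources used here.

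NEDD4L, the HECT ubiquitin ligase that SGK1 holds back by phosphorylation, stood at 40.5, 28.8 and 34.4 FPKM in sicontrol and at 38.3, 23.9 and 26.3 FPKM in siPOU2F1. The libraries of both groups interleaved, with replicate 1 the highest in each. The log2 difference was -0.24 (SE 0.21), and it ran from -0.44 to -0.11 as each library in turn was left out. FOXO1, a transcription factor of growth arrest and gluconeogenesis genes, stood at 3.91, 3.19 and 4.52 FPKM in sicontrol and at 5.39, 5.43 and 5.48 FPKM in siPOU2F1. Its siPOU2F1 libraries were nearly equal, all above the sicontrol libraries, and replicate 3 did not stand apart. Means were 3.87 ± 0.670 and 5.43 ± 0.0434 FPKM (SD, n = 3), with a log2 difference of 0.45 (SE 0.15), also 0.45 without replicate 3. FOXO3, the related factor linked to stress resistance and cell death, stood at 15.9, 17.5 and 12.9 FPKM in sicontrol and at 15.0, 14.9 and 17.1 FPKM in siPOU2F1. These groups overlapped, with a log2 difference of 0.03 (SE 0.14). The FOXO3B pseudogene averaged 2.27 FPKM, so some reads of FOXO3 may be counted there or the reverse.

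**Figure D3:**
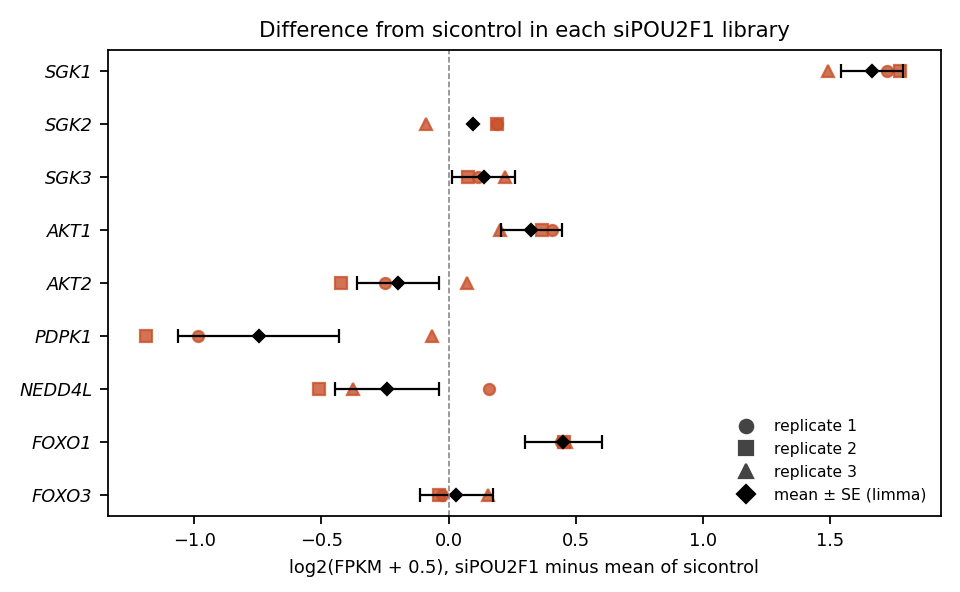
Difference of each siPOU2F1 library from the sicontrol mean (circles, squares and triangles for replicates 1 to 3), on the log2(FPKM + 0.5) scale. Diamonds with whiskers give the difference of group means with the SE of the limma fit. SGK2, with a mean under 1 FPKM, has no SE. SGK1 lay at 1.49 to 1.77 in the 3 libraries, FOXO1 at 0.44 to 0.46, and PDPK1 at -0.98 and -1.19 in replicates 1 and 2 but -0.07 in replicate 3.

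On GRCh38 (GENCODE 29), AKT1 (ENSG00000142208) lies at chr14:104769349-104795751 on the minus strand, AKT2 (ENSG00000105221) at chr19:40230317-40285536 (minus) and PDPK1 (ENSG00000140992) at chr16:2537964-2603188 (plus). NEDD4L (ENSG00000049759) lies at chr18:58044367-58401540 (plus), FOXO1 (ENSG00000150907) at chr13:40469953-40666597 (minus), FOXO3 (ENSG00000118689) at chr6:108559835-108684774 (plus) and SGK2 (ENSG00000101049) at chr20:43558968-43588237 (plus). SGK3 (ENSG00000104205) is on chromosome 8, where 6.04% of its exonic bases are shared with C8orf44 on the same strand. Antisense AL583722.2 covers 5.94% of the exonic bases of AKT1, and LINC00598 shares 4.32% of those of FOXO1, while none of SGK1, AKT2 and FOXO3 shares exonic bases with another annotated gene.

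Ordered by length-scaled level in sicontrol, the genes ran AKT1, AKT2, NEDD4L, FOXO3, PDPK1, SGK1, SGK3, FOXO1 and SGK2. Library ranges of neighbours overlapped for AKT1 and AKT2, AKT2 and NEDD4L, FOXO3 and PDPK1, PDPK1 and SGK1, and SGK3 and FOXO1. Within each sicontrol library, however, AKT2 was above NEDD4L and FOXO3 was above PDPK1, while the order of the other 3 pairs varied between libraries. After knockdown the order was AKT1, AKT2, SGK1, NEDD4L, FOXO3, PDPK1, FOXO1, SGK3 and SGK2. SGK1 moved from sixth to the third place, where its range overlapped those of both AKT2 and NEDD4L, and PDPK1 overlapped FOXO1. SGK2 was the lowest in both groups, apart from its neighbour.

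Of the 8 genes averaging 1 FPKM or more, 1 (SGK1) was past an adjusted p of 0.05 in the fit over all genes, where 1.24% of 11831 genes were called, 0.397% higher and 0.845% lower. The groups did not overlap for 4 of the 8 (SGK1, SGK3, AKT1 and FOXO1), all higher in siPOU2F1, beside 23.4% of all genes in either direction and 11.3% higher. With siPOU2F1 replicate 3 left out, 2 of the 8 were called (SGK1 higher and PDPK1 lower), beside 25.3% of 11814 genes. Since this contrast chose the genes, nothing is read from these counts. Their median log2 difference was 0.08, and that of all genes -0.01.

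The other genes of the pathway were grouped by role into 10 lists that together held 234 tested genes, listed with earlier results of these data known. limma called 1 of the 234, PRKACB, as lower and 0 as higher. Of the 234 differences 113 were positive and 121 negative, the median was -0.01, and 53 (22.6%) had an unadjusted p under 0.05, beside 18.1% of all 11831 genes. Groups did not overlap for 20 genes that were higher and 37 that were lower, together 24.4% beside 23.4% of all genes. These shares of all genes are the ones to set beside the counts of each list below. Without siPOU2F1 replicate 3, limma called 70 of 232 (30 higher and 40 lower). That is 30.2% beside 25.3% of all genes.

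PRKACB, a catalytic subunit of cAMP-dependent protein kinase and an AGC kinase like SGK1, stood at 10.2, 8.90 and 9.62 FPKM in sicontrol and at 3.64, 3.92 and 5.27 FPKM in siPOU2F1. It fell by 1.09 on the log2 scale (SE 0.16; limma adjusted p = 0.0347), without overlap between the groups. When siPOU2F1 replicate 3 was left out the adjusted p was 0.00454, and dropping 1 of the remaining 5 libraries instead gave 0.114 to 0.215. Of the 44 tested AGC kinases outside the set, 15 differences were positive and 29 negative, with a median of -0.13, and groups did not overlap for 3 higher and 11 lower kinases (31.8% beside 23.4% of all genes). ROCK1 and ROCK2, which drive actomyosin contraction, had log2 differences of -0.60 (adjusted p = 0.104) and -0.69 (adjusted p = 0.172). ROCK2 stood at 42.8, 45.3 and 36.0 FPKM in sicontrol and at 20.7, 22.0 and 35.6 FPKM in siPOU2F1, where replicate 3 was close to the controls. With siPOU2F1 replicate 3 left out, the log2 difference was -0.68 for ROCK1 (adjusted p = 0.0184) and -0.93 for ROCK2 (adjusted p = 0.00749).

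Upstream of PDPK1, none of 21 tested PI3-kinase, insulin receptor and lipid phosphatase genes was called by limma, and 4 had an unadjusted p under 0.05. Of their differences 13 were positive and 8 negative, with a median of 0.10. Groups did not overlap for 1 higher gene and 3 lower genes (19.0% beside 23.4% of all genes). The catalytic subunits PIK3CA and PIK3CB had log2 differences of -0.61 (adjusted p = 0.0646) and -0.71 (adjusted p = 0.0613). PIK3CA was at 10.7, 10.1 and 10.2 FPKM in sicontrol and 6.11, 6.50 and 7.27 FPKM in siPOU2F1, without overlap. PIK3CB was at 18.1, 15.9 and 20.5 FPKM and at 11.2, 11.5 and 10.1 FPKM, also without overlap. PIK3C2A, a class II enzyme, had -0.33 (adjusted p = 0.173). Leaving out siPOU2F1 replicate 3 gave PIK3CA -0.67 (adjusted p = 0.0106) and PIK3CB -0.65 (adjusted p = 0.0183).

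Among 17 genes of mTORC2, other SGK and AKT activators and AKT phosphatases, 0 were called by limma and 4 had an unadjusted p under 0.05, with a median of -0.09. RICTOR, the defining subunit of mTORC2, had a log2 difference of -0.19 (adjusted p = 0.452) and overlapping groups. PRR5, another mTORC2 subunit, had 0.33 (adjusted p = 0.225). PPP2CA and PPP2R1B, the catalytic and a scaffold subunit of the phosphatase PP2A that can dephosphorylate AKT, had -0.63 (adjusted p = 0.111) and -0.54 (adjusted p = 0.0807), both without overlap. In the fit without siPOU2F1 replicate 3 they had -0.70 (adjusted p = 0.0251) and -0.57 (adjusted p = 0.0184).

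**Figure D4:**
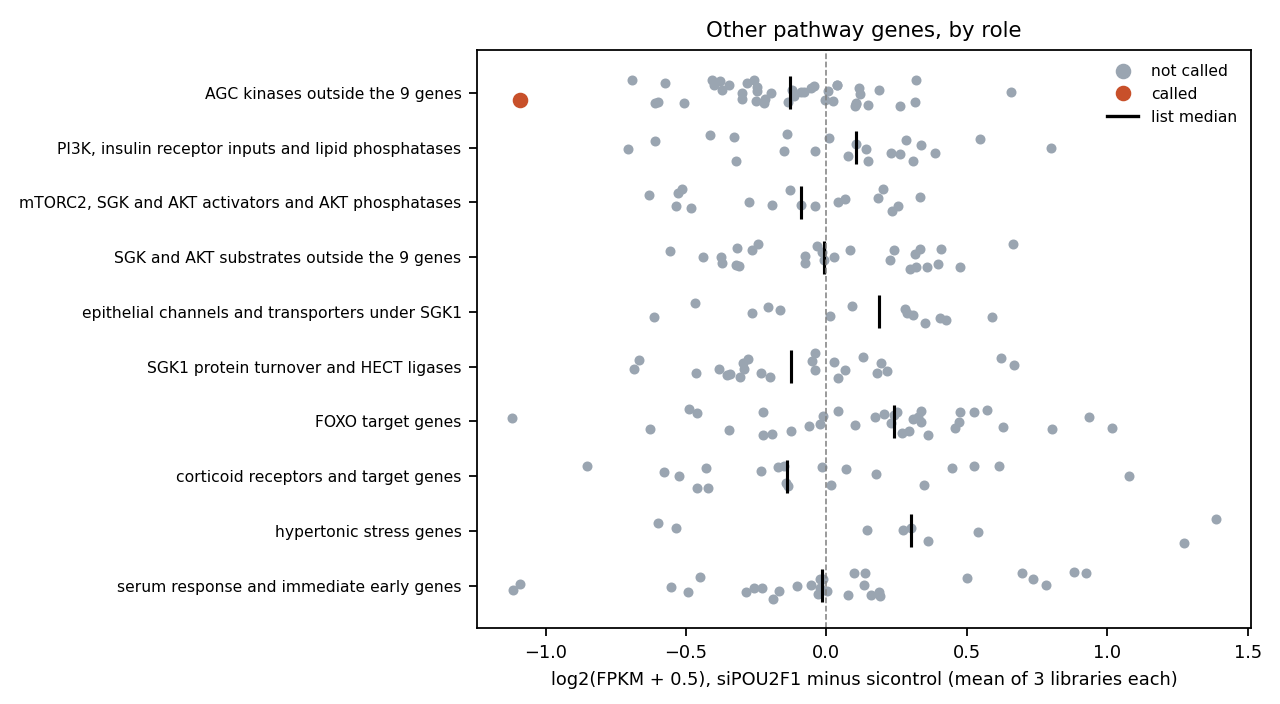
Difference of every tested pathway gene outside the 9 genes on the log2(FPKM + 0.5) scale, 1 row of points per role, with the list median as a bar. Medians ran from -0.14 for corticoid receptor and target genes to 0.30 for hypertonic stress genes, and PRKACB at -1.09 was the 1 gene called.

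Downstream, none of 27 tested SGK and AKT substrates was called by limma, 7 had an unadjusted p under 0.05, and the median was -0.01. NDRG1, whose phosphorylation is commonly read as SGK1 activity, stood at 539, 386 and 382 FPKM in sicontrol and at 788, 899 and 447 FPKM in siPOU2F1. Replicates 1 and 2 of siPOU2F1 were above every sicontrol library, and replicate 3 fell within the sicontrol range. Its RNA differed by 0.66 on the log2 scale (adjusted p = 0.267), and by 0.97 (adjusted p = 0.0130) without that replicate. FOXO4, another FOXO factor, had 0.30 (adjusted p = 0.397) with overlapping groups. BAD, a pro-death protein inactivated by AKT, had -0.44 (adjusted p = 0.104; 0.0222 without siPOU2F1 replicate 3), the lipogenic enzyme ACLY -0.37 (adjusted p = 0.177), and TBC1D4, which couples AKT to glucose transporter traffic, 0.33 (adjusted p = 0.189).

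Of 14 tested epithelial channels and transporters under SGK1, limma called 0, 4 had an unadjusted p under 0.05, and the median was 0.19. ATP1B1, the sodium pump subunit that brings the pump to the membrane, stood at 18.3, 15.6 and 16.3 FPKM in sicontrol and at 10.3, 10.6 and 11.3 FPKM in siPOU2F1, without overlap (log2 difference -0.61, adjusted p = 0.0606; 0.0129 without siPOU2F1 replicate 3). SLC1A5, a glutamine transporter, had 0.43 (adjusted p = 0.142).

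The 24 tested genes of SGK1 protein turnover and HECT ligases had a median of -0.13; limma called 0, and 6 had an unadjusted p under 0.05. Groups did not overlap for 1 higher and 8 lower genes (37.5% beside 23.4% of all genes). ITCH, a HECT ligase related to NEDD4L, had a log2 difference of -0.69 (adjusted p = 0.0607), with 46.4, 54.9 and 44.7 FPKM in sicontrol and 31.8, 31.8 and 26.6 FPKM in siPOU2F1. SMURF2, a HECT ligase of TGF-beta signalling, had -0.67 (adjusted p = 0.113). NEDD4, the closest relative of NEDD4L, stood at 12.3, 12.4 and 10.9 FPKM in sicontrol and at 6.95, 8.13 and 10.7 FPKM in siPOU2F1. Its groups did not overlap, though siPOU2F1 replicate 3 came close to the controls, and the difference was -0.46 (adjusted p = 0.225; 0.0173 without that replicate). NDFIP2, an adaptor of these ligases, had -0.38 (adjusted p = 0.203). Once siPOU2F1 replicate 3 was left out, limma called 11 of the 24, 10 of them lower (45.8% beside 25.3% of all genes). The adjusted p was then 0.0161 for ITCH, 0.0133 for SMURF2 and 0.0333 for NDFIP2.

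FOXO target genes numbered 35 tested, of which limma called 0 and 7 had an unadjusted p under 0.05. Their median was 0.24, with 23 positive and 12 negative differences. Groups did not overlap for 4 higher genes and 1 lower gene (14.3% beside 23.4% of all genes). By library the median was 0.36 and 0.39 in siPOU2F1 replicates 1 and 2 but 0.04 in replicate 3. BCL2L11, which encodes the cell-death protein BIM, stood at 7.34, 7.30 and 6.96 FPKM in sicontrol and at 10.1, 10.6 and 9.89 FPKM in siPOU2F1, without overlap (log2 difference 0.47, adjusted p = 0.0933; 0.0222 without siPOU2F1 replicate 3). The pseudokinase gene TRIB1 had 0.93 (adjusted p = 0.152) and was at 85.4 and 75.1 FPKM in siPOU2F1 replicates 1 and 2 but at 42.7 in replicate 3, near the sicontrol values of 31.0, 29.8 and 41.6. Without that replicate TRIB1 had 1.23 (adjusted p = 0.00716). CCNG2, a cyclin of growth arrest, differed in the other direction, by -0.63 (adjusted p = 0.151).

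The 3 best-known inputs to SGK1 RNA were read through lists of corticoid, hypertonic and serum response genes. Among 20 corticoid receptor and target genes limma called 0, 4 had an unadjusted p under 0.05, and the median was -0.14. NR3C1, the glucocorticoid receptor, stood at 2.61, 3.39 and 1.73 FPKM in sicontrol and at 1.19, 1.32 and 3.15 FPKM in siPOU2F1, with overlap (log2 difference -0.42, adjusted p = 0.521). TSC22D3, the glucocorticoid-induced gene GILZ, had -0.52 (adjusted p = 0.289). BIRC3, an inhibitor of apoptosis, and the metallothionein MT2A had -0.85 (adjusted p = 0.103) and -0.43 (adjusted p = 0.169), and the transcription factor CEBPD had 0.45 (adjusted p = 0.134). When siPOU2F1 replicate 3 was dropped, BIRC3 had -0.99 (adjusted p = 0.0158) and CEBPD 0.49 (adjusted p = 0.0305).

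Of 9 tested hypertonic stress genes limma called 0, 2 had an unadjusted p under 0.05, and the median was 0.30. The median was 0.52 in siPOU2F1 replicates 1 and 2 and -0.02 in replicate 3. HSPA1B, a heat shock protein whose reads cannot be fully separated from the near-identical HSPA1A, had 1.27 (adjusted p = 0.279) with overlapping groups, and 1.82 (adjusted p = 0.0216) without siPOU2F1 replicate 3. TNFRSF21, a death receptor, had 0.54 (adjusted p = 0.235) and the chaperone HSPA4L -0.53 (adjusted p = 0.225). Of 30 serum response and immediate early genes limma called 0, 7 had an unadjusted p under 0.05, and the median was -0.02. MYC stood at 167, 167 and 166 FPKM in sicontrol and at 271, 242 and 201 FPKM in siPOU2F1, without overlap (log2 difference 0.50, adjusted p = 0.113). EGR1, an immediate early transcription factor, had -1.09 (adjusted p = 0.137), and the receptor-signalling antagonist SPRY4 -0.49 (adjusted p = 0.104). Leaving that library out gave MYC 0.62 (adjusted p = 0.0092), EGR1 -1.34 (adjusted p = 0.0159) and SPRY4 -0.54 (adjusted p = 0.0203). In the same fit, where 25.3% of all genes were called, limma called 10 FOXO targets as higher and 2 as lower (35.3% of 34), 7 serum response genes as higher and 4 as lower (37.9% of 29), and 3 hypertonic stress genes as higher and 1 as lower (44.4% of 9).

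The genes whose profile over the 6 libraries lay nearest to that of SGK1 were taken from 8694 genes averaging 5 FPKM or more. Likeness was the root mean square difference of log2 values centred on each gene's mean. PRSS33, a serine protease gene, was nearest at 0.087, followed by the tropomyosin gene TPM4 at 0.139, the zinc finger gene ZNF267 at 0.140, the adenylate kinase gene AK6, which overlaps TAF9, at 0.196 and the tetraspanin-like membrane protein gene TM4SF1 at 0.197. PRSS33 stood at 2.35, 2.41 and 2.72 FPKM in sicontrol and at 8.16, 9.55 and 6.89 FPKM in siPOU2F1. TPM4 stood at 88.3, 88.9 and 122 FPKM and at 386, 379 and 276 FPKM. In both genes, as in SGK1, the groups did not overlap and siPOU2F1 replicate 3 was the lowest of its group, whereas AK6 was highest in that replicate, with 11.8, 12.3 and 13.2 FPKM. PRSS33, ZNF267 and AK6 averaged under 5 FPKM in sicontrol and passed the filter through their siPOU2F1 libraries, so the filter favours genes with this pattern. These 5 genes were chosen for their likeness over these same 6 libraries, so it is not tested.

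**Figure D5:**
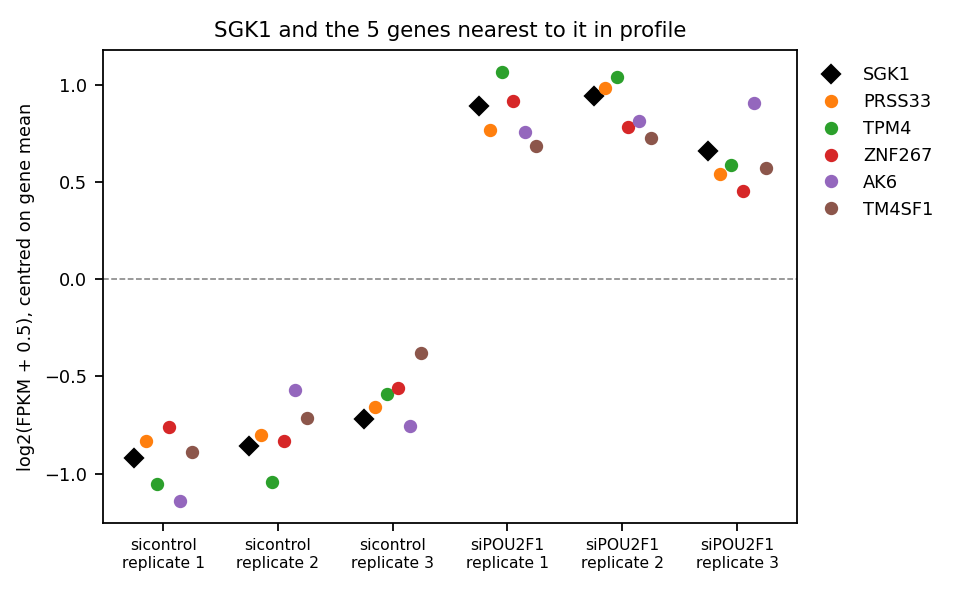
log2(FPKM + 0.5), centred on each gene's mean, of SGK1 (diamonds) and its 5 nearest genes (circles) in each of the 6 libraries. All 6 genes lay below their mean in every sicontrol library and above it in every siPOU2F1 library.

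The 3′ UTRs of the 9 genes were searched for AACTGCA and AGAATGA, short words that earlier work on these libraries had picked by their relation to the fold changes, so no test is given. For each gene a single transcript was searched, the one with the longest coding part, so other 3′ ends of the gene were not covered. None of the 9 searched 3′ UTRs held AACTGCA, which 12.4% of 11520 tested genes held. AGAATGA occurred once in each of AKT2, PDPK1 and FOXO3 and in none of the other 6, beside 14.9% of tested genes. The length searched was 1022 bases for SGK1 and 436 for NEDD4L, where the median over tested genes was 995. In the genes that held AGAATGA it was longer, at 3555 bases for AKT2, 5421 for PDPK1 and 4976 for FOXO3. In POU2F1 each word occurred 2 times, in a 3′ UTR of 11535 bases.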

How the data were processed

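For each of the 6 libraries the authors deposited FPKM per gene. The submitters' processing notes name the build hg38 and the tools StringTie 2.1.2, HISAT2 2.0.4 and Bowtie2 2.2.5. The role of each, the annotation release and the strand setting were not given in the sources used here. FPKM carry no counts, so depth is unknown, and values were used as deposited. The 9 genes and all lists were chosen with earlier results of these data known.

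Annotated genes averaging 1 FPKM or more (11831) were fitted as log2(FPKM + 0.5). The fit used limma 3.58.1 (R 4.3.3), a trend of variance on mean, and group as its single term. Benjamini-Hochberg adjustment covered all 11831, and genes under 0.05 were called. The fit was tested on simulated data. No adjusted p is given for the 9 genes.

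Named besides POU2F1 and the 9 genes are called pathway genes, the 3 lowest p of each list, further pathway genes (NDRG1, NR3C1, TSC22D3, FOXO4, RICTOR, NEDD4) and the 5 genes nearest to SGK1 in profile. A few genes that this rule takes are not reported here. EPCAM and other markers, and overlapping genes or copies, were named after their values were seen. Of 277 listed pathway symbols 273 were matched in the tables. Positions and 3′ UTRs came from GENCODE 29 (GRCh38) and promoters from RefSeq (GRCh38.p14); 20460 of 20474 gene identifiers were in the gene name table. Alternatives changed the pseudocount, filter, scaling, trend, library weights, replicate block and the libraries used.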

Additional observations from a re-analysis of the deposited data

How the results depend on the processing

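No called gene named above changed direction under any setting it was run with, and the other called genes were not followed. FOXO3, near 0 as reported, ran from -0.06 to 0.05 over the settings and from -0.09 to 0.12 with 1 library left out. SGK2 was not followed under any alternative. SGK3, FOXO1 and POU2F1 averaged under 5 FPKM and were not run with that filter. Otherwise SGK1, SGK3, AKT1, AKT2, PDPK1, NEDD4L and FOXO1 kept their sign. With 1 library left out PDPK1 had -1.09 to -0.52, AKT2 -0.34 to -0.09 and NEDD4L -0.44 to -0.11, and array weights gave AKT1 0.49, AKT2 -0.44 and NEDD4L -0.46. The number of called genes, 147 of 11831, was 140 to 193 with pseudocounts of 0.1 and 1, a filter at 5 FPKM, quantile normalization or median scaling, but 72 with no filter, 93 without the trend and 5963 with array weights. Leaving out 1 library gave 0 to 2990 called genes: limma called 0 without sicontrol replicate 1 (1331 had an unadjusted p under 0.05), 0 without siPOU2F1 replicate 1 (1261) and 0 with siPOU2F1 replicate 2 dropped (1179). The count was 5 when sicontrol replicate 2 was dropped, 9 for sicontrol replicate 3 and 2990 for siPOU2F1 replicate 3. Called pathway genes, 1 in the comparison as reported, numbered 4 with a filter at 5 FPKM (PRKACB, ATP1B1, ITCH and PIK3CB), 137 with array weights and 0 to 70 with 1 library left out. The log2 difference of SGK1 was 1.80 with array weights and 1.61 to 1.75 with 1 library left out. That of POU2F1 was -0.99 (adjusted p = 0.0650) with no filter and -1.06 to -0.95 with 1 library left out; PRKACB had an adjusted p of 0.0678 with no filter. The cause of these changes was not tested. Same-numbered libraries of the 2 groups had correlations of their deviations of 0.13, -0.54 and -0.51, and no library of sicontrol correlated best with its own number. The highest correlation, 0.64, was between sicontrol replicate 2 and siPOU2F1 replicate 3. Deviations were taken from each group's own mean and are tied to each other, so these correlations cannot decide whether the numbers pair the libraries. With the replicate block limma called 0 genes (1208 with an unadjusted p under 0.05) and 0 pathway genes, and POU2F1 had -0.99 (adjusted p = 0.297), with the same adjusted p for PRKACB. FPKM give no depth, which limits what can be said of low genes such as SGK2.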
